A study of Mus musculus with 4 samples.

Results

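The 37 genes described here are the 19 Wnt ligands, the 10 Frizzled receptors and 8 secreted inhibitors (Sfrp1, Sfrp2, Sfrp4, Sfrp5, Frzb, Dkk1, Dkk2 and Dkk3) among 22208 protein-coding genes of the mouse annotation. They were chosen by name and family, with earlier results of these data known. RYBP occupancy of their loci was measured by chromatin immunoprecipitation and sequencing (ChIP-seq). All of the data come from 1 group: wild-type embryonic stem cells, given as of a C57Bl/6 X Sv129 background. The study names J1 as its wild-type line and states such a background only for its mice. The cells were differentiated as embryoid bodies (EBs, free-floating aggregates in which mesoderm forms) to day 3.75 by the labels. The methods of the study name a slightly later day. The cells are given as sorted FLK1+ PDGFRa- mesoderm, whereas the methods name FLK1+ cells for this ChIP and describe isolation by FLK1 alone. Chromatin was precipitated with an antibody against DEDAF, another name of RYBP, in 2 replicates. The 2 input samples that belong to them were not analysed here. The series contrasts no genotype, treatment or time point, so all comparisons below are between genes, and genes are not replicates of a condition. A peak list holds no expression values, so the sorted cell type could not be checked against its markers, and it holds no read depth. Replicate 1 gave 14794 peaks and replicate 2 gave 18154 peaks.

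Wnt ligands are secreted lipid-modified proteins that bind Frizzled receptors on neighbouring cells. With the co-receptors Lrp5 and Lrp6 this stabilises beta-catenin, which acts with Tcf and Lef factors in the nucleus, while other Wnt and Frizzled pairs steer cell polarity and movement without beta-catenin. Sfrp proteins and Frzb carry a Frizzled-like domain and sequester Wnts outside the cell, whereas Dkk1 and Dkk2 bind the Lrp co-receptors. In the gastrulating embryo, Wnt signals pattern the primitive streak and the mesoderm that leaves it. RYBP is a subunit of non-canonical Polycomb repressive complex 1, which ubiquitinates histone H2A and is found mainly at CpG islands, stretches of DNA rich in the dinucleotide CpG.

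The sequence just upstream of the start site is shown for the ligand and the inhibitor that rank first in their class by the smaller of the replicate fold enrichments. Each run is the 250 bp before the 5′-most start site of a coding transcript, read 5′ to 3′ on the strand of the gene in mm9, with every CpG in capitals. Wnt5b is at chr6:119494337-119494586 on the minus strand and Sfrp1 at chr8:24521724-24521973 on the plus strand.
Wnt5b: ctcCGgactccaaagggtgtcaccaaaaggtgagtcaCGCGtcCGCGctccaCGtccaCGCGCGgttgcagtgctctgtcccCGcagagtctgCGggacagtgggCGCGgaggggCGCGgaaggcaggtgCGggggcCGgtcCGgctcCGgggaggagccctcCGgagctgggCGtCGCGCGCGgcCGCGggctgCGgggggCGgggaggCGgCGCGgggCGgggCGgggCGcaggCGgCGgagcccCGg
Sfrp1: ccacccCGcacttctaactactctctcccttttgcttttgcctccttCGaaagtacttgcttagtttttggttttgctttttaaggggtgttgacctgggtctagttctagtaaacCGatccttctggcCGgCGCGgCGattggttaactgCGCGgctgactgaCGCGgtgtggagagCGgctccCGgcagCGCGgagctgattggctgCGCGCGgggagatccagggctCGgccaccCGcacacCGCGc
The Wnt5b run holds 38 CpG and the Sfrp1 run 22, and all 250 bp of each lie inside a RYBP region found in both replicates. For contrast, chosen after their values were seen, the same stretch is given for Wnt16 (chr6:22237980-22238229, plus strand), whose region was called in replicate 1 alone, and for Dkk1 (chr19:30624156-30624405, minus strand), whose region begins inside the gene.
Wnt16: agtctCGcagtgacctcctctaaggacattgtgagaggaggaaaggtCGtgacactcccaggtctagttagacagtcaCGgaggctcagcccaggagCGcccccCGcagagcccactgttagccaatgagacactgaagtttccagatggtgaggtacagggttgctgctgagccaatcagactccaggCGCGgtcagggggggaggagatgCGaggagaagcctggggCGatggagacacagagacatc
Dkk1: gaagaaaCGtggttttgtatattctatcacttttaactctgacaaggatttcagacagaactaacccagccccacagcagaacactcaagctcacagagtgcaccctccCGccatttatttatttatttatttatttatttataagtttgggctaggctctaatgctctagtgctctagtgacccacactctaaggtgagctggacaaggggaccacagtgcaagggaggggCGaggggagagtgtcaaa
These runs hold 9 and 3 CpG. All 250 bp of the Wnt16 run lie in its region of replicate 1, and 0 bp of the Dkk1 run lie in any region.

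The first question was how many of the loci RYBP occupied. A locus was taken as the gene body with 5 kb upstream, and a region as an entry of the merged list of the authors, which is the union of the peaks of both replicates. RYBP regions lay at 36 of the 37 loci (97.3%, exact binomial 95% interval 85.8 to 99.9%), beside 57.1% of all protein-coding genes. Regions that overlapped a peak of each replicate, called regions found in both replicates from here on, lay at 35 of 37 loci (94.6%, interval 81.8 to 99.3%), beside 38.9% of all genes. Intervals cover counting error over genes only. Replicate 1 had a peak at 36 loci, beside 43.9% of all genes, and replicate 2 at 35 loci, beside 53.7%. The receptors and the inhibitors listed above were occupied without exception, 10 of 10 and 8 of 8, and in both replicates each time. This does not extend to all secreted antagonists of the pathway. Dkk4, set with the other pathway genes below, had a region of 193 bp in replicate 1 alone. Of the 6 other secreted antagonists there, which include Dkk4, 3 had a region found in both replicates. Ligands were occupied at 18 of 19 loci, 17 of them in both replicates. The exceptions were Wnt8a, with no peak in either replicate, and Wnt16, with a peak in replicate 1 alone.

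**Figure D1:**
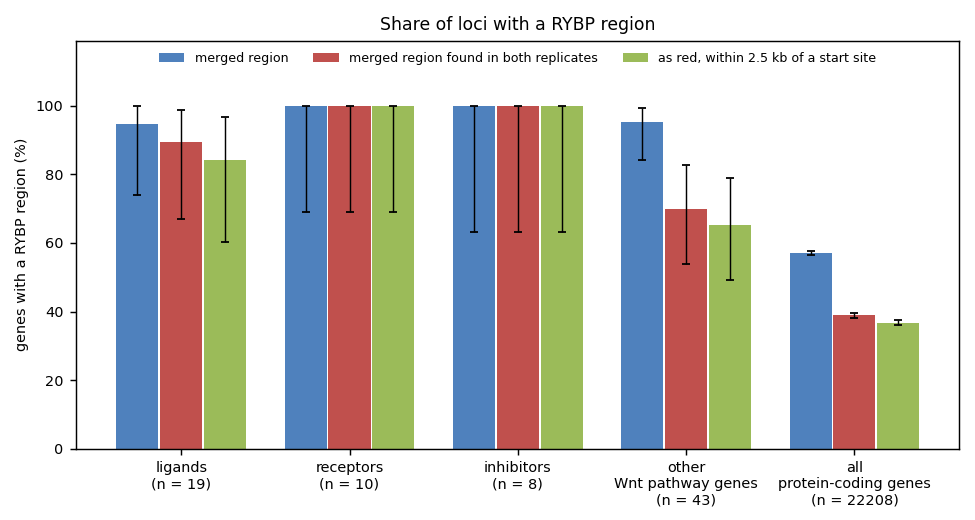
Share of loci (%) with a merged RYBP region (blue), with a region found in both replicates (red) and with such a region within 2.5 kb of a start site (green), for 3 classes of Wnt genes, 43 other Wnt pathway genes and all 22208 protein-coding genes; bars are shares and lines exact binomial 95% intervals over genes. The red bar stands at 89.5% for ligands and 100% for receptors and inhibitors, beside 69.8% for the other pathway genes and 38.9% for all genes.

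Start sites were occupied at nearly all of the genes. Within 2.5 kb of a start site there was a region at 36 of 37 genes, beside 53.4% of all genes, and a region found in both replicates at 34, beside 36.8%. A region in the gene body itself lay at 36 members, beside 54.1% of all genes, and a peak of at least 3-fold enrichment at the locus at 36, beside 54.2%. The 34 genes with a start-site region in both replicates comprised 16 ligands, all 10 receptors and all 8 inhibitors. Start sites of these families are CpG-rich: with a CpG-rich start defined as at least 3 CpG per 100 bp over 500 bp on each side, 34 of the 37 members had one, and the median was 7.79 CpG per 100 bp for the members and 4.10 for all genes. All 34 CpG-rich members were occupied, in both replicates. Among all 12631 protein-coding genes with a CpG-rich start, 83.8% were occupied and 59.8% were occupied in both replicates. Set beside genes above the same CpG threshold, the members thus stood nearer to the background than in the comparison with all genes. These genes were not matched to the members on CpG density above the threshold. The CpG-poor members were Wnt16 with 2.70, Wnt8b with 2.10 and Wnt8a with 1.90 CpG per 100 bp. Of the 9577 CpG-poor genes in the genome, 21.9% were occupied and 11.3% in both replicates. CpG content and membership move together here, and their separate parts were not tested.

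**Figure D2:**
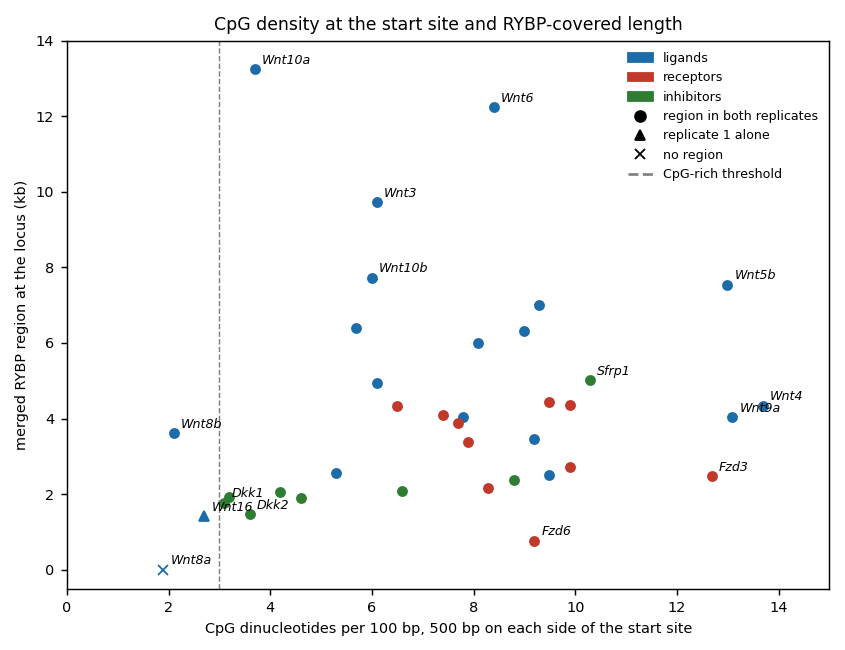
CpG dinucleotides per 100 bp around the start site (x axis) against the length of merged RYBP region at the locus in kb (y axis) for the 37 genes, coloured by class; the dashed line marks the CpG-rich threshold of 3 per 100 bp. Wnt8a, with 1.90 CpG per 100 bp, is the gene at 0 kb, and Wnt10a, with 3.70, is the gene with the most covered sequence.

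Peak strength was read as the highest fold enrichment of a peak at the locus, which is the linear ratio of read pile-up to local background computed by the peak caller. Each broad peak has a single such value for its whole width, and the part of width in this value was not tested. The median over members was 3.96 in replicate 1 (36 genes) and 4.62 in replicate 2 (35 genes), beside 3.53 and 3.92 for all genes with a peak. Receptors had the highest medians, 4.36 and 5.06 in replicates 1 and 2. The medians were 3.74 and 4.43 for the ligands and 3.71 and 4.23 for the inhibitors. Median CpG per 100 bp around the start site ran in the same order, 8.74 for receptors, 7.79 for ligands and 4.40 for inhibitors. Its part in the fold enrichments was not tested. Replicate 2 gave the higher value at 29 of the 35 members with a peak in both (82.9%), beside 78.3% of all such genes. The median SD between the replicates was 0.45 for members and 0.43 for all genes. With 36 members spread between 2.89 and 6.13 in replicate 1, most neighbours in that order lay closer together than this, and the order within a class is given as a description.

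**Figure D3:**
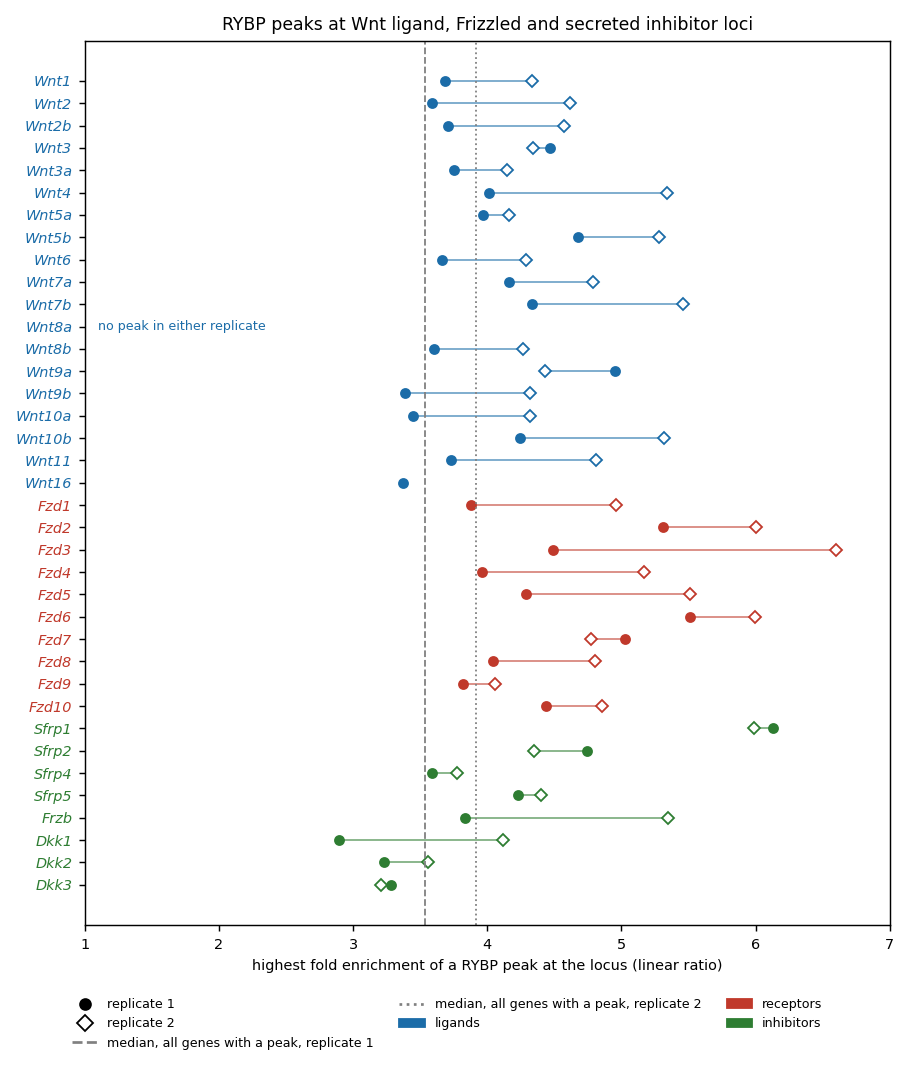
Highest fold enrichment (linear ratio) of a RYBP peak at each of the 37 loci, replicate 1 as filled circles and replicate 2 as open diamonds, with lines joining the replicates of a gene and vertical lines at the medians over all genes with a peak (3.53 and 3.92). Sfrp1, Fzd6 and Fzd2 lie above 5 in both replicates, Dkk1, Dkk2 and Dkk3 are the lowest inhibitors in replicate 1, and Wnt8a has no point.

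The ligands came first by role. Wnt5b, a ligand that signals mainly without beta-catenin, had the strongest peaks of its class by the smaller of the replicate values, 4.67 and 5.28 in replicates 1 and 2. Its peaks lay in a region at chr6:119493096-119494980, 1885 bp wide, over the 5′-most start site, which is 96064 bp ahead of the first coding base. The Wnt5b locus held 7 regions in 7547 bp, the largest number of any member, but just 2 of the 7 were found in both replicates. The other of these, at chr6:119429079-119431163, lies in an intron of Wnt5b and contains the start site of Fbxl14, a gene for an F-box protein, so its assignment to Wnt5b is uncertain. The region closest to a start site near the coding exons was called in replicate 2 alone, with a fold enrichment of 3.07.

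Wnt9a, which acts in joint formation, reached 4.95 and 4.43 in replicates 1 and 2, in a region of 2556 bp over its start site (chr11:59119348-59121903). Wnt3, which the mouse embryo requires to form a primitive streak, had its strongest peak not at the start site but over its last coding exons. That region, chr11:103670352-103674877, began 34888 bp downstream of the start site and covered coding blocks 3 and 4 of 4, with 4.47 and 4.34 in the replicates. At the start site itself Wnt3 had 3.50 and 4.13, in a region of 4891 bp (chr11:103631921-103636811). Both Wnt3 regions were found in both replicates.

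Wnt7b, a ligand of lung, kidney and placental development, had 4.33 and 5.46, the first from a region of 3222 bp over an internal start site (chr15:85406393-85409614) and the second from a region of 2771 bp over the 5′-most start site (chr15:85410646-85413416). Wnt10b, known for its action on bone and fat cell progenitors, had 4.24 and 5.31 at its start site (chr15:98606218-98611139) and a second region of 2989 bp further into the gene (chr15:98602003-98604991) with 3.43 and 2.96. Together these covered 100% of the Wnt10b coding sequence.

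The remaining ligands with peaks in both replicates ran from 3.39 (Wnt9b) to 4.16 (Wnt7a) in replicate 1. In replicate 2 the same genes ran from 4.14 (Wnt3a) to 5.34 (Wnt4). Wnt3a, which drives paraxial mesoderm and tail bud growth, had 3.75 and 4.14 and 4 regions, 2 of them in both replicates. Wnt5a and Wnt11, ligands of cell movement and polarity, had 3.96 and 4.16, and 3.73 and 4.81. Wnt1, a midbrain organiser, had 3.69 and 4.33 in a single region of 4945 bp that covered the whole coding sequence. Wnt4, a ligand of kidney and ovary development, had 4.01 and 5.34. For Wnt2 and Wnt2b, which act in lung formation, the values were 3.59 and 4.62, and 3.71 and 4.57.

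Wnt8b, a ligand of the developing forebrain, had 3.60 and 4.27, from a region over its last coding exons (chr19:44585305-44588160, coding blocks 5 and 6 of 6). It began 17343 bp downstream of the start site. Near the Wnt8b start site there were only short regions of 345 bp and 407 bp, the first called in replicate 1 alone and the second in replicate 2 alone. Wnt8b is therefore the ligand, besides Wnt16 and Wnt8a, that had no region found in both replicates at a start site.

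Wnt16, which in zebrafish acts upstream of blood stem cell formation, had a single region of 1421 bp over its start site (chr6:22237971-22239391), where replicate 1 gave 3.37-fold enrichment at a −log10 q of 2.37 and replicate 2 gave no peak. Without replicate 1 the Wnt16 call is lost. At Wnt8a, a ligand of the primitive streak, no peak was called in either replicate, and the nearest merged region lay 12306 bp outside the locus. The lists do not hold read counts, so an absent peak says only that the caller found none.

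Ligands covered the most sequence. The 5 members with the most bp of merged region were all ligands: Wnt10a with 13250 bp, Wnt6 with 12236 bp, Wnt3 with 9726 bp, Wnt10b with 7730 bp and Wnt5b with 7547 bp. Of the 22208 protein-coding genes, 73 had more covered bp than Wnt10a and 85 more than Wnt6. Both genes, Wnt10a acting in tooth and skin and Wnt6 in epithelial morphogenesis, were covered over 100% of their coding sequence. Their regions were broad, and their highest fold enrichments lay below the member medians of 3.96 and 4.62. Wnt10a had 3.44 and 4.32 and Wnt6 had 3.66 and 4.28 in replicates 1 and 2.

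These genes are neighbours on chromosome 1, in the same orientation with 6196 bp between them. Wnt6 carried a region of 5742 bp over its start site (chr1:74815853-74821594) and a short intronic region of 762 bp, both found in both replicates. A region of 8644 bp (chr1:74826993-74835636) then ran over coding blocks 2 to 4 of 4 of Wnt6 and past its end into the upstream sequence of Wnt10a, with 3.45 and 4.04 in the replicates. Wnt10a followed with a region of 5010 bp at its start site (chr1:74836794-74841803) and a region of 9103 bp (chr1:74846069-74855171) over its coding blocks 3 and 4 of 4. The shared region covers coding sequence of Wnt6 and ends 2454 bp upstream of the Wnt10a start site, and it is counted at both loci.

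The other neighbouring pairs within 50 kb shared no region. Wnt1 and Wnt10b lie 11706 bp apart on chromosome 15, Wnt3a and Wnt9a 16175 bp apart on chromosome 11, and Wnt3 and Wnt9b 24328 bp apart on the same chromosome. All of these genes had regions of their own found in both replicates at their start sites. Of 19 ligands, 14 had more than 1 region, beside 2 of 10 receptors and 3 of 8 inhibitors. Over all protein-coding genes, 3972 of the 12678 occupied genes had more than 1 region. Locus length differed as well, with medians of 27238 bp for ligands, 9588 bp for receptors and 27773.5 bp for inhibitors, and its part in the number of regions was not tested.

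**Figure D4:**
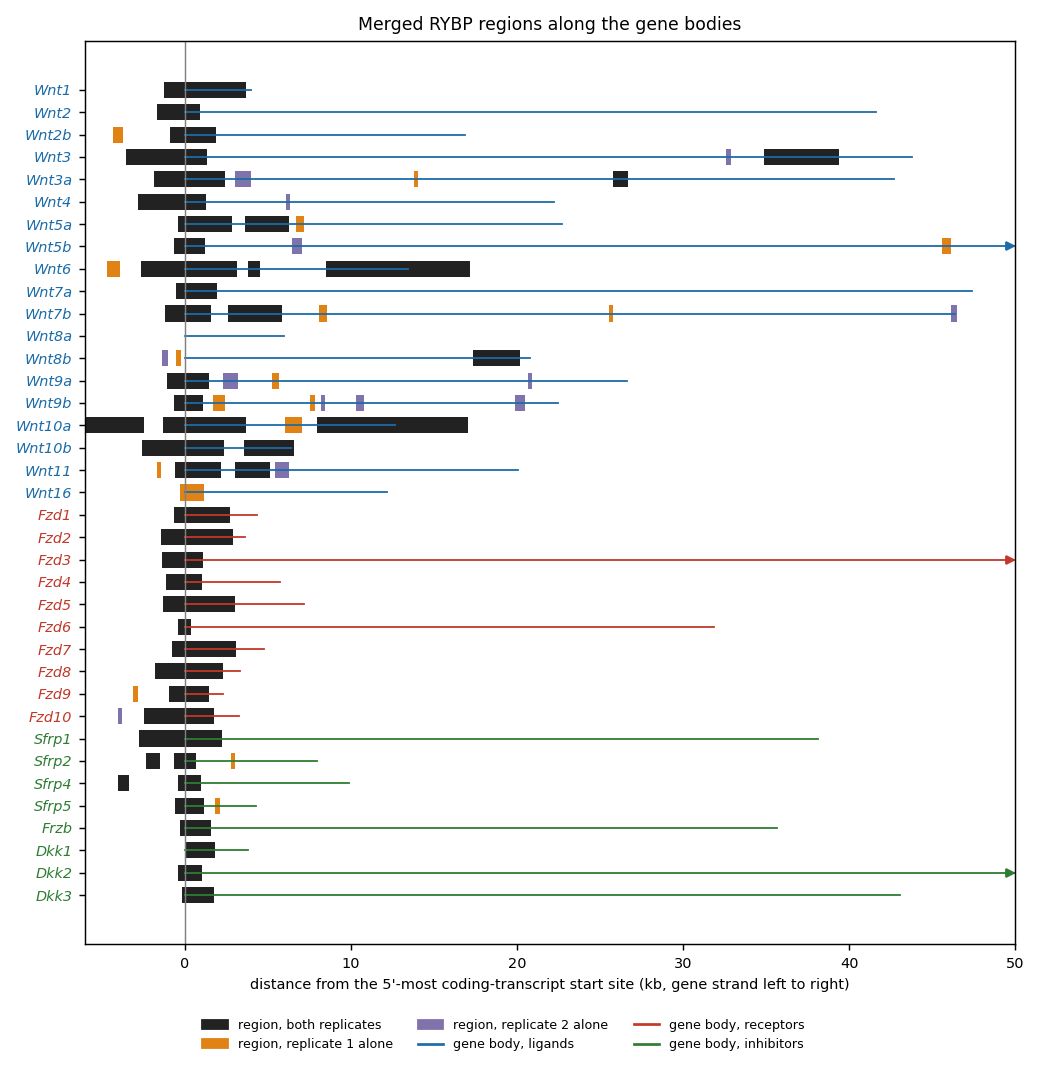
Merged RYBP regions along each gene, with distance from the 5′-most start site of a coding transcript in kb on the x axis and the gene strand running left to right; black bars are regions found in both replicates, orange bars replicate 1 alone, purple bars replicate 2 alone and thin lines gene bodies. Bars beyond 50 kb, 4 of them at Wnt5b, and sequence more than 6 kb upstream are not drawn. Black bars lie over the start site at most genes, and Wnt3, Wnt6, Wnt10a and Wnt10b have a further black bar near the end of the gene. At Wnt8b the only black bar lies near the end of the gene.

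Frizzled receptors gave the most uniform picture, with a region found in both replicates over a start site of each of the 10 genes. Fzd6 had the strongest peaks by the smaller replicate value, 5.51 and 6.00, in the narrowest of these regions, 770 bp. Its partner in planar cell polarity, Fzd3, had 4.49 and 6.60 in a region of 2466 bp (chr14:65880210-65882675). The Fzd3 replicates were the farthest apart among the receptors, and its 6.60 was the highest value of any member in replicate 2. Fzd6 and Fzd3 have large introns, and their regions covered no coding sequence.

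Fzd2 and Fzd7 are closely related receptors of beta-catenin and polarity signals, and Fzd7 is abundant in pluripotent cells. Fzd2 had 5.31 and 6.00 in a region of 4340 bp (chr11:102464349-102468688), and Fzd7 had 5.03 and 4.78 in a region of 3891 bp (chr1:59538213-59542103). Fzd10 had 4.44 in replicate 1 and 4.85 in replicate 2, but the latter came from a separate region of 234 bp (chr5:129102703-129102936) that was called in replicate 2 alone. In the 4215 bp region over the Fzd10 start site (chr5:129104288-129108502) the values were 4.44 and 4.16.

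The other 5 receptors were lower in replicate 1, from 3.82 (Fzd9) to 4.29 (Fzd5), but overlapped the first 5 in replicate 2, from 4.06 (Fzd9) to 5.51 (Fzd5) in replicate 2. Fzd5, required for yolk sac and placental vessels, had a region of 4371 bp, and Fzd4, the receptor of Norrin in retinal vessels, a region of 2163 bp. Fzd1 had 3.88 and 4.96 and Fzd8 had 4.05 and 4.80. Most Frizzled genes have a single coding exon or nearly so, and the regions took in much of it. At the median receptor 90.4% of the coding sequence lay in a region, and 5 receptors were covered whole. The same median was 15.1% for ligands, of which 4 were covered whole, and 50.1% for inhibitors, of which 0 were. Regions filled 36.7% of the receptor locus at the median, 15.2% of the ligand locus and 12.7% of the inhibitor locus, beside 3.59% over all occupied genes. The median locus was 9588 bp for receptors and 20538.5 bp for all genes, and its part in these shares was not tested.

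Among the inhibitors, the Sfrp genes and Frzb had higher values than the Dkk genes in replicate 1, and in replicate 2 the order held apart from Dkk1, which lay above Sfrp4. Sfrp1 had 6.13 in replicate 1, the highest value of any member in that replicate, and 5.99 in replicate 2. Its region of 5017 bp (chr8:24519203-24524219) was the only inhibitor region of 4 kb or more. Sfrp2 had 4.74 and 4.35 at its start site (chr3:83569594-83570914) and a separate upstream region of 802 bp (chr3:83567937-83568738) found in both replicates with 3.68 and 3.56. Sfrp5 had 4.23 and 4.40 (chr19:42275559-42277333), and Frzb had 3.83 and 5.34 (chr2:80286185-80288072). These 4 genes encode soluble Wnt-binding proteins.

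Sfrp4 also had a pair of regions found in both replicates. The stronger peak of replicate 1, 3.59, lay in an upstream region of 699 bp (chr13:19710950-19711648), and that of replicate 2, 3.78, in the 1345 bp region at the start site (chr13:19714590-19715934). At the start site replicate 1 had 2.93. Sfrp2 and Sfrp4 were the members with a region found in both replicates that lay upstream of the gene, apart from the region shared by Wnt6 and Wnt10a.

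The Dkk genes followed. Dkk1, the co-receptor antagonist needed for head formation, had 2.89 and 4.12, and the −log10 q was 1.22 in replicate 1 and 3.46 in replicate 2. The Dkk1 region (chr19:30622313-30624083) began 72 bp downstream of the start site and ran over coding blocks 1 and 2 of 4. Dkk2 had 3.23 and 3.56 with a −log10 q of 1.84 and 2.15. Dkk3, a divergent family member, had 3.28 and 3.20 with a −log10 q of 1.89 and 1.41. It is thus the inhibitor lost when a −log10 q of at least 2 is asked for in at least 1 replicate. By that rule, 7 of 8 inhibitors, 18 of 19 ligands and 10 of 10 receptors were left, beside 47.4% of all genes. Dkk1 and Dkk2 met the threshold in replicate 2 alone, and Wnt16 in replicate 1 alone. The medians of the Dkk genes, 3.23 and 3.56, lay below those of all genes with a peak, and the medians of the 5 Sfrp and Frzb genes, 4.23 and 4.40, above them. The Dkk start sites were also poorer in CpG, with a median of 3.20 per 100 bp against 6.59 for Sfrp and Frzb.

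The regions were next described one by one. The 37 loci held 80 distinct regions, of which 47 were found in both replicates (58.8%, beside 44.2% of all 22409 merged regions), 18 in replicate 1 alone and 15 in replicate 2 alone. Ligand loci held 56 of them and 27 of these 56 were found in both (48.2%). Receptor and inhibitor loci held 12 each, with 10 found in both (83.3%). Read the other way, 73.1% of the 67 replicate 1 peaks at the loci overlapped a replicate 2 peak, beside 69.0% of all replicate 1 peaks. In replicate 2 the share was 76.9% of 65 peaks, beside 56.4% of all.

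The share found in both replicates varied with position. Of 37 regions that contained a start site of their gene, 36 were found in both replicates, the exception being Wnt16. In the whole list, 6713 of 8820 regions over a protein-coding start site were found in both, so a higher share at start sites is general. Of 23 intronic regions, 22 of them at ligands, 4 were found in both, at Wnt3a, Wnt5a, Wnt5b and Wnt6. Upstream regions numbered 9, with 2 found in both. Coding exons away from start sites carried 9 regions, with 5 found in both, at Wnt3, Wnt6, Wnt8b, Wnt10a and Dkk1. The median width was 2741 bp for regions found in both replicates, 414 bp in replicate 1 alone and 447 bp in replicate 2 alone. For all merged regions the same medians were 1421, 490 and 506 bp. CpG per 100 bp followed the same order, with medians of 5.23, 1.17 and 1.37 at the member loci and 6.02, 1.55 and 2.62 over all merged regions. The regions found in both held 89.3% of the covered bp at these loci, beside 71.9% in the whole list.

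**Figure D5:**
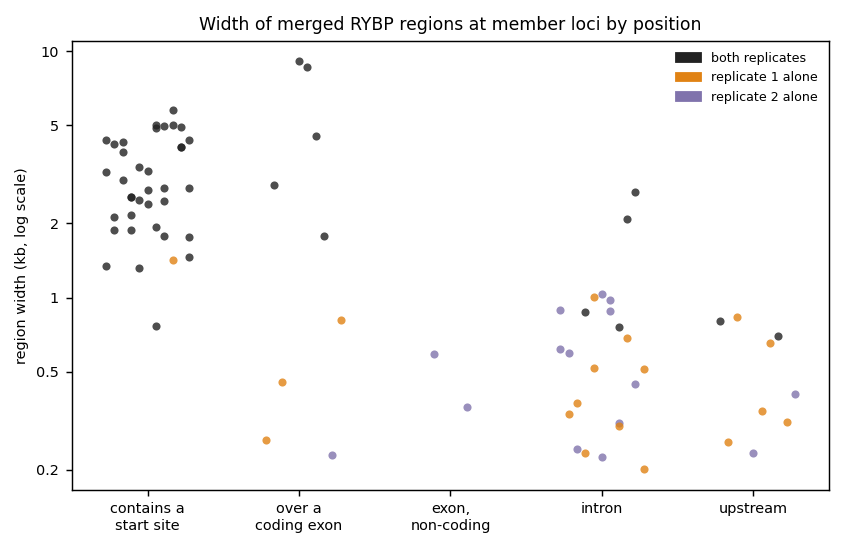
Width of the 80 merged RYBP regions at member loci (kb, log scale) by position relative to the gene, black for regions found in both replicates, orange for replicate 1 alone and purple for replicate 2 alone. Regions over a start site are black apart from 1, and the intronic and upstream regions, mostly orange or purple, are mostly under 1 kb.

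Regions at these loci were wide. A width of 4 kb or more was reached by 15 of 80 regions (18.8%, exact binomial 95% interval 10.9 to 29.0%), beside 644 of 22409 in the whole list (2.87%). All of these wide regions were found in both replicates, where the counts were 15 of 47 at the members and 644 of 9901 in the whole list. The interval takes regions as independent, although adjoining regions at Wnt6 and Wnt10a are among the 15. The 15 were 10 at ligands, 4 at receptors and 1 at an inhibitor. At the 34 genes whose 5′-most start site lay in a merged region, which include Wnt16, the region reached a median of 1009 bp upstream and 1691 bp downstream of the start, beside 488 and 756 bp over the 8048 protein-coding genes with such a region. The downstream arm was the longer at 25 of 34 members and at 5466 of 8048 genes. The covered length per occupied gene had a median of 5477 bp for ligands, 3641 bp for receptors and 1986.5 bp for inhibitors, beside 1210.5 bp for all occupied genes.

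The members were set beside 43 other genes of the pathway, from co-receptors to nuclear factors. Of these, 41 were occupied (95.3%), close to the share of the members, but 30 were occupied in both replicates (69.8%). Replicate 1 had a peak at 32 of them and replicate 2 at 39. Among genes with a CpG-rich start, 28 of 37 other pathway genes were occupied in both replicates (75.7%), whereas the members were at 34 of 34 and all genes at 59.8%. The difference between the lists was not tested. The covered length was shorter, with a median of 1832 bp, and the median fold enrichment was 3.60 and 4.08.

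The strongest of the other pathway genes, by the smaller replicate value, was Lef1, a nuclear partner of beta-catenin, with 5.33 and 4.88. Pygo1, a nuclear co-activator, had 4.54 and 5.21, and Nkd1, a feedback antagonist that binds Dishevelled, had 4.45 and 5.17. Tcf7l2, another nuclear partner of beta-catenin, had 4.15 and 4.43, and Nkd2 had 4.02 and 4.26. No region lay at Cer1 or Sostdc1, which encode secreted antagonists, and their starts held 1.90 and 1.20 CpG per 100 bp. By role, a region found in both replicates lay at 6 of 7 co-receptors and other receptors, 6 of 8 nuclear factors, 8 of 9 genes of the R-spondin axis, 6 of 10 cytoplasmic components, 3 of 6 other secreted antagonists and 1 of 3 genes of ligand processing, beside 38.9% of all genes. This grouping was made after the list had been chosen.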

How the data were processed

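RYBP ChIP-seq peaks of 2 replicates were analysed, grouped by the labels. The design text names SCL, whereas the title and antibody name RYBP. The submitters' processing notes name Bowtie 1.1.2b, MACS2 2.0.10 and bedtools. By the study's methods, reads were aligned to mm9, duplicates were removed and broad peaks were called in each replicate separately. Each peak has a fold enrichment, a linear ratio deposited by the authors, with −log10 of its p-value and q-value and a score derived from the q-value. The merged list deposited by the authors holds positions alone, and all 22409 of its regions equalled the union of both lists once replicate 2 starts were moved by 1 bp. Starts were then taken as 1-based, which the lists do not state.

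Loci came from GENCODE annotation of the same build (gene body plus 5 kb upstream, overlap of at least 1 bp, autosomes and X). Sequence was read from that genome with pysam 0.24.0. Exact binomial intervals used SciPy 1.17.1, and figures matplotlib 3.10.9. The overlap code was tested on simulated data. The lists hold no read depth, and a union keeps peaks of a single replicate, which raises counts of regions. No test was run, since 1 group holds no contrast.

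All 37 members are named. Those given in full are the 5 of each class with the largest smaller-of-both-replicates fold enrichment, the 5 with the most covered bp, and those with no region or a region in 1 replicate. Of the other pathway genes, the top 5 and those with no region are named. An upstream sequence for the receptors is not reported here. The members and lists were chosen with earlier results of these data known. Alternatives were a −log10 q of at least 2 in at least 1 replicate, a fold enrichment of at least 3 in at least 1 replicate, other loci and overlaps, regions found in both replicates, and each replicate alone.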

Additional observations from a re-analysis of the deposited data

How the results depend on the processing

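The counts of occupied genes stayed within 1.5 times their value under every alternative run, with an exception for all protein-coding genes, which fell from 12678 to 8169 when a region found in both replicates within 2.5 kb of a start site was required, a combination added after the data had been seen. Merged regions at member loci fell from 80 to 47 when found in both replicates, since the merged list is a union. With a single replicate, the occupied members were 35 to 36, the ligands 17 to 18, the receptors 10, the inhibitors 8, the other pathway genes 32 to 39, all protein-coding genes 9747 to 11918, the regions 65 to 67 and the covered bp 124592 to 128095, against 158304 in the merged list. Without replicate 1 the calls at Wnt16, Gsk3b and Dkk4 were lost, and without replicate 2 those at 9 other pathway genes. No paired analysis was possible because the lists come from a single group and the inputs carrying the same numbers were not analysed here. The study states the depth of the libraries, with more mapped reads in replicate 1, but the lists give no read count per peak, so no interval for a single peak is given, and 2 replicates give a rough SD at most.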

Other observations

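Besides Fbxl14 at Wnt5b, 3 non-coding genes start inside regions of members. The start site of the lincRNA Gm17265 lies in the Fzd6 region, that of 5930412G12Rik in the Fzd10 region and that of AU022754 in the region over the 5′-most Wnt7b start site, so these regions cannot be assigned to the coding gene alone.

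Some values among the other pathway genes, chosen after they were seen, may merit a closer look. Notum, a secreted enzyme that removes the lipid of Wnt proteins, reached 3.92-fold enrichment in replicate 1 and 6.41-fold in replicate 2, with 41.7% of its locus in regions. Sost, a secreted antagonist that binds Lrp co-receptors, held 2 regions found in both replicates although its start site has 1.80 CpG per 100 bp, with 3.62 and 5.33. Lrp6 and Ctnnb1, the genes of the co-receptor and of beta-catenin, had a peak in replicate 2 alone, with 4.98 and 4.62, and Gsk3b, the kinase that marks beta-catenin for degradation, had a peak in replicate 1 alone, with 3.12.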
